A study of Rattus norvegicus with 10 samples.

Results

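The complement transcripts described here are those of C1qa, C1qb, C1qc, C1r, C1s, C2, C3, Cfb and Serping1, in 10 rat mammary tumor samples measured on Affymetrix rat expression arrays. They were selected by gene symbol, and the list of symbols was drawn up with earlier results of these data known. A gene was taken from a probe set (a group of short probes read as 1 value) that the platform annotation pairs with that symbol alone. Of the 9 symbols, 7 had such a probe set, each a single one, out of 14217 genes with a probe set of their own and 31099 probe sets in all. C2 and Cfb had none, because 4 probe sets carry both of their symbols.

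All tumors were induced in female Sprague-Dawley rats with the carcinogen 7,12-dimethylbenz(alpha)anthracene (DMBA), given by mouth at 100 mg/kg. The basal group held 5 untreated needle biopsies taken at 12 weeks of age. The final group held 5 samples of the same tumors at 19 weeks, after adriamycin (doxorubicin, a topoisomerase II poison) at 1 mg/kg per week for 6 weeks into the tail vein. The tumors are coded 09I1, 11D2, 12I1, 29I1 and 43D1, and each gave 1 basal and 1 final array. No untreated tumor of the later age was analysed here, so treatment, age and the run of array codes, which is separate for each group, cannot be told apart. The sample labels call the final material the whole tumor, while the design text speaks of needle biopsies, and a difference in the kind of sample cannot be told apart from treatment either. The sources used here do not give the number of rats behind the 5 tumors, and p-values cover only the spread among tumors. Luminal epithelial markers were bright in both groups, with a mean of 11.54 to 11.92 log2 units on basal and 11.21 to 11.94 on final arrays over 7 of 7 genes.

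The final array of 09I1 stood apart from the rest. Its median correlation with the other arrays was 0.938, against 0.975 to 0.984 for the other 9, and the difference between its 3' and 5' beta-actin probe sets was 2.61 log2 units, where the others had 0.72 to 0.96. Mean changes without 09I1 are therefore given for each of the 7 measured genes, and for other genes where they differ by more than 1.5 times or in sign.

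Complement is a cascade of plasma and tissue proteins that marks surfaces for uptake or lysis. In the classical pathway, C1q, a bouquet of A, B and C chains made largely by macrophages and dendritic cells, binds antibody or altered surfaces and switches on the proteases C1r and C1s, which stromal and epithelial cells make as well. C1s cleaves C4 and C2, and the resulting convertase cleaves C3, the component on which all pathways meet. Factor B (Cfb) forms the convertase of the alternative pathway, and Serping1 encodes C1 inhibitor, which blocks C1r and C1s.

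None of the 7 measured genes passed the test of final against basal samples. Their changes were large within single tumors and pointed both ways: all 7 were higher in the final sample of 11D2 and of 43D1, all 7 were lower in 29I1 and in 09I1, and 12I1 divided them. In 12I1 the C1q chains and C3 were lower in the final sample while C1r, C1s and Serping1 were higher. With limma and Benjamini-Hochberg adjustment over 23281 probe sets, 0 of the 7 had an adjusted p under 0.05, as did 0 probe sets in all (0%). At an unadjusted p under 0.05 the count was 0 of 7, against 4.02% of probe sets, and the methods' paired t-test also called 0. None had the same sign in all 5 tumors, a pattern found in 5.83% of the 12255 genes tested. The median change of the 7 was 0.42 log2 units, against 0.014 for all genes tested. In bulk samples, fewer cells of a type and less RNA per cell cannot be told apart.

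**Figure D1:**
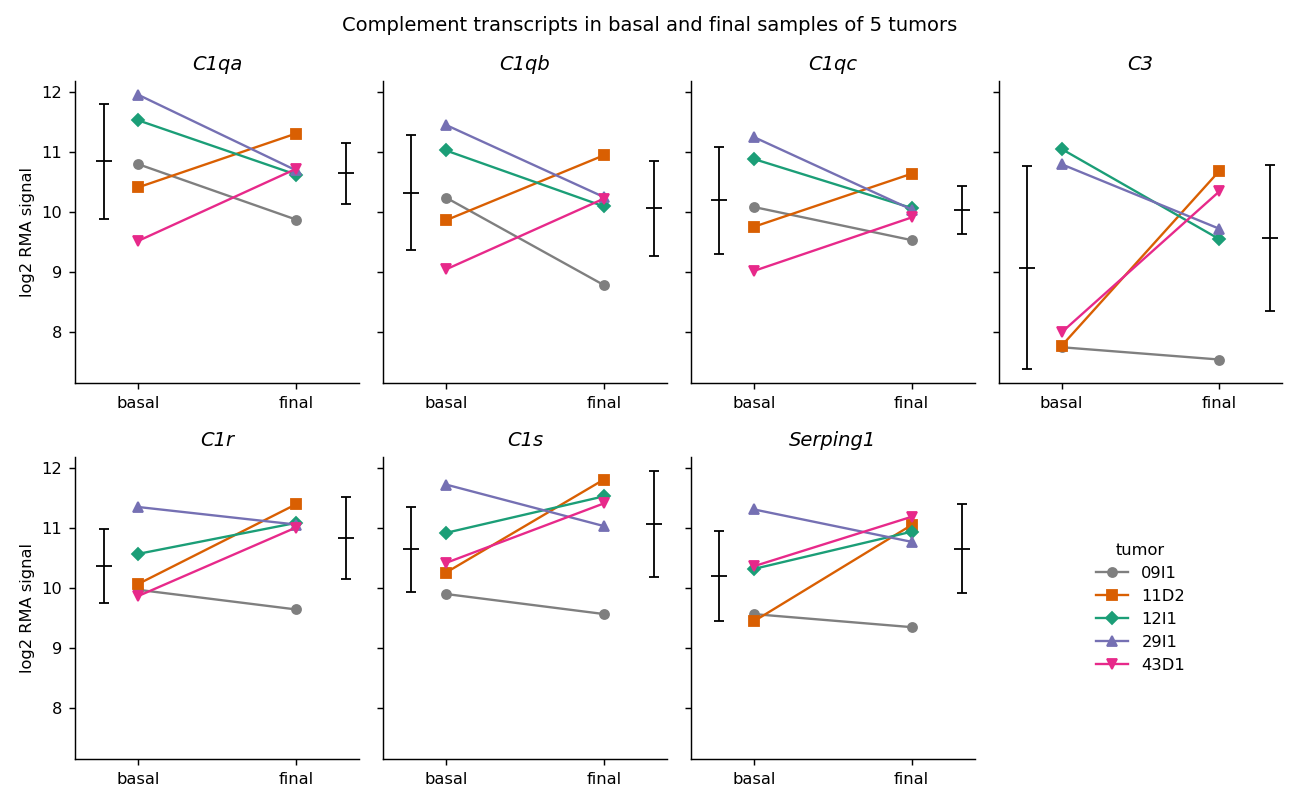
Level (log2 RMA signal, vertical axis) of each complement gene in the basal and final sample of 5 tumors, 1 line and symbol per tumor. Black bars beside the lines are the group mean ± SD (n = 5). Lines cross in every panel, and C3 spans the widest range, from 7.54 to 11.05.

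The C1q chains had nearly the same pattern. C1qa, the A chain (1376652_at), had basal values of 10.80 (09I1), 10.41 (11D2), 11.53 (12I1), 11.95 (29I1) and 9.52 (43D1), and final values of 9.87, 11.30, 10.62, 10.69 and 10.72 in the same order. The basal samples of 29I1 and 12I1 were the highest and that of 43D1 the lowest, and the groups overlapped. The mean went from 10.84 ± 0.95 (SD, n = 5) to 10.64 ± 0.51 (SD, n = 5), a difference of -0.20 ± 0.40 (SE) with a 95% interval of -1.14 to 0.74 (limma adjusted p = 0.977).

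C1qb, the B chain (1370215_at), had basal values of 10.24, 9.86, 11.02, 11.45 and 9.04 in 09I1, 11D2, 12I1, 29I1 and 43D1, and final values of 8.78, 10.94, 10.09, 10.25 and 10.22. The final sample of 09I1 was the lowest of all 10. Its difference was -0.27 ± 0.44 (SE, interval -1.31 to 0.78, limma adjusted p = 0.977). C1qc, the C chain (1373025_at), had basal values of 10.08, 9.75, 10.88, 11.25 and 9.02 and final values of 9.53, 10.64, 10.07, 10.04 and 9.91, with the same tumors at the top and bottom before treatment. Its difference was -0.16 ± 0.35 (SE, interval -0.98 to 0.66, limma adjusted p = 0.977).

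All C1q chains ranked the basal tumors in the same order, 29I1, 12I1, 09I1, 11D2 and 43D1 from high to low. In the final samples 11D2 was the highest and 09I1 the lowest for each chain. The spread between tumors was smaller in the final group for C1qa (SD 0.95 and 0.51), C1qc (0.89 and 0.40) and C1qb (0.95 and 0.79), a comparison that was not tested. For C1qb the final value of 09I1, at 8.78, lay below the other final values of 10.09 to 10.94. By tumor, the change of the A, B and C chains was 1.20, 1.18 and 0.89 in 43D1 and 0.90, 1.08 and 0.88 in 11D2. It was -1.26, -1.20 and -1.21 in 29I1, -0.90, -0.93 and -0.82 in 12I1, and -0.92, -1.46 and -0.55 in 09I1. The chains were closest to each other in 29I1 and farthest apart in 09I1. The sign of the C1q means rests on single tumors. Without 09I1 the means were -0.016 for C1qa, 0.032 for C1qb and -0.062 for C1qc. Without 29I1 they were 0.068 for C1qa and 0.10 for C1qc, and without 12I1 C1qc was at 0.0041.

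C1r and C1s, the proteases of the C1 complex, differed in sign of change from the C1q chains in 12I1 alone. C1r (1383241_at) stood at 9.96, 10.06, 10.56, 11.34 and 9.86 in the basal samples of 09I1, 11D2, 12I1, 29I1 and 43D1 and at 9.64, 11.39, 11.08, 11.05 and 11.00 in the final ones. Of the final samples, 4 lay between 11.00 and 11.39, above 4 of the 5 basal samples, and that of 09I1 was lower than every basal sample. The mean went from 10.36 ± 0.61 to 10.83 ± 0.68 (SD, n = 5 each), a difference of 0.47 ± 0.28 (SE) with an interval of -0.19 to 1.13, positive in 3 of 5 tumors (limma adjusted p = 0.977), and of 0.67 without 09I1.

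C1s (1387893_at) had basal values of 9.89, 10.25, 10.91, 11.72 and 10.41 and final values of 9.56, 11.80, 11.52, 11.03 and 11.40 in the same order of tumors. Final 11D2 and basal 29I1 were the highest, and both samples of 09I1 the lowest. The difference was 0.42 ± 0.33 (SE, interval -0.34 to 1.19), positive in 3 of 5 tumors, with limma adjusted p = 0.977, and 0.61 without 09I1.

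Serping1, the inhibitor of both proteases (1372254_at), had basal values of 9.56, 9.44, 10.31, 11.30 and 10.36 and final values of 9.34, 11.04, 10.93, 10.76 and 11.18. It was lowest in both samples of 09I1 and in the basal sample of 11D2. Its mean went from 10.19 ± 0.75 to 10.65 ± 0.75 (SD, n = 5 each), a difference of 0.46 ± 0.30 (SE, interval -0.26 to 1.18), positive in 3 of 5 tumors, with limma adjusted p = 0.977, and 0.63 without 09I1. The inhibitor and its target proteases thus moved the same way in every tumor. The changes of C1r, C1s and Serping1 were 1.33, 1.55 and 1.60 in 11D2, 1.14, 0.99 and 0.82 in 43D1, 0.52, 0.61 and 0.62 in 12I1, -0.29, -0.69 and -0.54 in 29I1, and -0.33, -0.33 and -0.22 in 09I1.

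C3 (1368000_at) varied more than any other of the 7. Its basal values were 7.75 (09I1), 7.77 (11D2), 11.05 (12I1), 10.79 (29I1) and 7.99 (43D1), and its final values 7.54, 10.68, 9.55, 9.72 and 10.34. The basal samples of 12I1 and 29I1 were far above the other 3, whereas 4 of the 5 final samples lay between 9.55 and 10.68. C3 was 7.54-fold higher in the final than in the basal sample of 11D2 and 5.09-fold higher in 43D1. It was 2.83-fold lower in 12I1, 2.11-fold lower in 29I1 and 1.15-fold lower in 09I1. The mean difference was 0.50 ± 0.69 (SE) with an interval of -1.12 to 2.11 (limma adjusted p = 0.977), 0.67 without 09I1 and -0.11 without 11D2.

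The SD of the within-tumor changes of C3 was 2.01, a value that 71 of the 12255 genes exceeded, while the median gene had 0.41. The same SD was 1.15 for C1qa, 1.29 for C1qb, 0.98 for C1qc, 0.78 for C1r, 0.93 for C1s and 0.85 for Serping1. C1r, the least variable of the 7, still exceeded 84.5% of genes. These ranks describe the 5 tumors and carry no test.

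A limit of 1 log2 unit (a 2-fold difference), set after the values had been seen, shows where the larger changes lay. In 11D2, 5 of the 7 genes (C1qb, C1r, C1s, C3 and Serping1) were higher by more than that in the final sample, against 3.48% of all genes, and in 43D1 4 of 7 (C1qa, C1qb, C1r and C3), against 3.75%. In 29I1, 4 of 7 (the C1q chains and C3) were lower by more than that, against 5.83% of all genes. In 12I1 it was C3 alone, against 2.23%, and in 09I1 C1qb alone, against 8.50%. Each of these figures compares 2 arrays and has no replicate check.

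The 4 probe sets that carry the symbols of both Cfb and C2, which lie next to each other in RefSeq's GRCr8 annotation, did not agree and are assigned to neither gene. Their mean changes ran from -0.20 to 0.61 (0.12 to 0.95 without 09I1), and none passed (smallest limma adjusted p = 0.977). The highest, 1389470_at, had basal values of 10.27, 9.72, 8.06, 8.76 and 7.58 in 09I1, 11D2, 12I1, 29I1 and 43D1 and final values of 9.50, 9.56, 9.51, 9.81 and 9.05. Its changes of 1.45 in 12I1 and 1.06 in 29I1 had the sign opposite to those of C1q and C3 there. The other 3 stayed between -0.48 and 0.64 in every tumor apart from 1393219_at in 09I1, at -1.83.

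**Figure D2:**
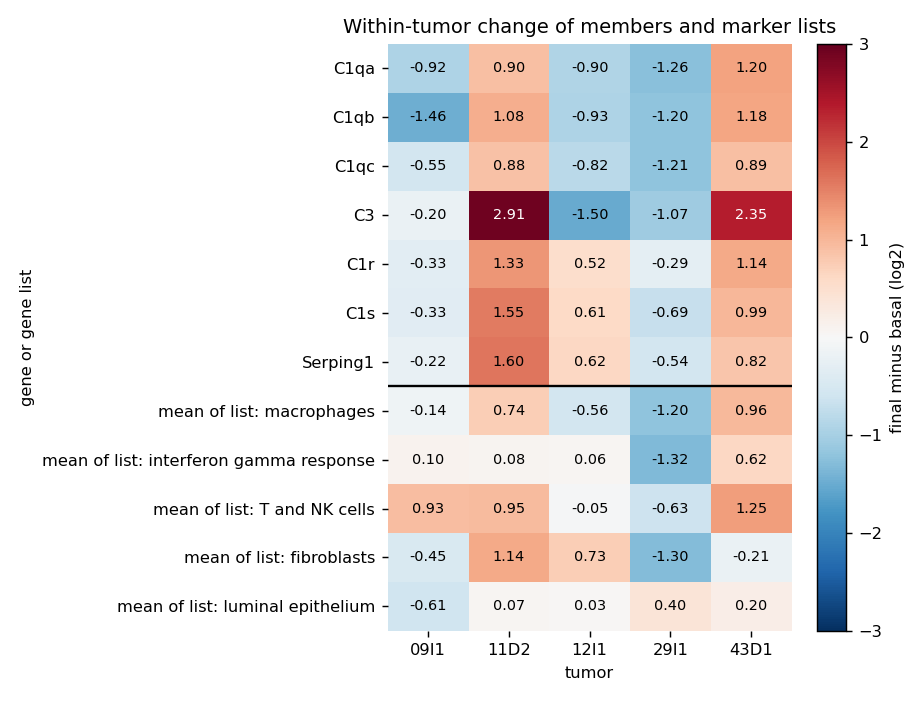
Final minus basal (log2, colour and printed value) in each of 5 tumors for the complement genes, above the line, and for the mean of marker lists, below it. C1q and C3 have negative values in 12I1 (-0.82 to -1.50), where C1r, C1s and Serping1 have positive ones (0.52 to 0.62).

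Across the 10 arrays the genes fell into sets by their levels. C1q chains correlated with each other at Pearson's r of 0.94 to 0.99 (Spearman's rho 0.93 to 0.95), and C1r, C1s and Serping1 with each other at 0.90 to 0.96 (rho 0.82 to 0.95). Between these sets r was 0.48 to 0.77 (rho 0.48 to 0.71), with C1qc and Serping1 the lowest pair. C3 lay at 0.78 to 0.83 with C1q and at 0.83 to 0.87 with C1r, C1s and Serping1. Without the final array of 09I1 the ranges were 0.99 to 1.00 within C1q, 0.87 to 0.95 within C1r, C1s and Serping1, and 0.39 to 0.68 between them. Arrays of a tumor are not independent, and all share RMA scaling, so these values are descriptions. Over the 5 within-tumor changes r was higher between the sets, at 0.81 to 0.94. Within the final arrays alone it was 0.70 to 0.97 between the sets, and within the basal arrays 0.51 to 0.89. The sets were thus less distinct within a group than over all 10 arrays. The changes of C3 correlated at 0.92 to 0.97 with those of C1q and at 0.75 to 0.80 with those of C1r, C1s and Serping1.

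In RefSeq's GRCr8 annotation C1qb, C1qc and C1qa are neighbours on chromosome 5 in that order, and C1r and C1s are neighbours on chromosome 4. C3 lies on chromosome 9 and Serping1 on chromosome 3. Genes that moved together were thus physical neighbours in the case of C1q and of C1r with C1s, whereas Serping1 shared the pattern of C1r and C1s from another chromosome. RefSeq promoters (250 bases before to 50 after the gene's start, build GRCr8) were matched for 4 of the 9 genes. They are shown because C1qa and C1qb moved together, C1r had the opposite sign to them in 12I1 and C3 varied most. Capitals mark matches to motifs chosen after the expression values were known. All were searched on both strands. They were GAGGAA, the core of PU.1, a myeloid factor, TTCNNNGAA, the GAS element bound by STAT proteins, and TTGCNNAA, a C/EBP element. The interferon-stimulated response element was taken as TTTC, any 2 bases and TTTC, and the NF-kB element as GGG, any 2 bases and TTTCC. Positions count back from the start of the gene.
C1qa promoter, chr5:154419884-154420183, minus strand: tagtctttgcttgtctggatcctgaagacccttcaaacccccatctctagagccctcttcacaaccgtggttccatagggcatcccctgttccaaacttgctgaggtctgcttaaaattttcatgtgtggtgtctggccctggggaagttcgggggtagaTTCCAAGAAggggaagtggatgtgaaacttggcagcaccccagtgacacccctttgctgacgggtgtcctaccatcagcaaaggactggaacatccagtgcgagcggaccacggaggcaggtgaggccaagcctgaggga
C1qb promoter, chr5:154407778-154408077, minus strand: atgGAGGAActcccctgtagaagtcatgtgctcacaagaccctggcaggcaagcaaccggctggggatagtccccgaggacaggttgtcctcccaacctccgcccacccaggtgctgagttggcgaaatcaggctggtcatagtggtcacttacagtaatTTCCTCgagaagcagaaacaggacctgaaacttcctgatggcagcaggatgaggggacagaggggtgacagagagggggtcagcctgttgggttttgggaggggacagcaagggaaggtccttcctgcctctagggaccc
C1r promoter, chr4:159098763-159099062, plus strand: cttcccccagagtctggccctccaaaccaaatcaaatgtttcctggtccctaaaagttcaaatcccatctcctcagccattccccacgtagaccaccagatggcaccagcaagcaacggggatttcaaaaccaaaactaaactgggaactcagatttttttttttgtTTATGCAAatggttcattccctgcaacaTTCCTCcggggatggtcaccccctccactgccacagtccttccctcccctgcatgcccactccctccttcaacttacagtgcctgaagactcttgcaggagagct
C3 promoter, chr9:2201290-2201589, minus strand: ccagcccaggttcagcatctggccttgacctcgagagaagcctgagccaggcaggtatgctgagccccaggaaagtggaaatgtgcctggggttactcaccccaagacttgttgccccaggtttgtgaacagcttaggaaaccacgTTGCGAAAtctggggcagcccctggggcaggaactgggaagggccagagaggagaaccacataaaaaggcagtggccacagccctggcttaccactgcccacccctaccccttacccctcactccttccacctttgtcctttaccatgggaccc

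C1qb held the PU.1 core at -247 to -242 and at -90 to -85, and C1r held it at -55 to -50. That core is common, occurring in 27.6% of the 33469 promoters of the table. C1qa held a GAS match at -90 to -82 (8.87% of promoters), and C/EBP matches lay at -104 to -97 in C3 and at -83 to -76 in C1r (10.6%). The interferon-stimulated element (3.92% of promoters) and the NF-kB element (1.53%) had 0 matches in the 4 windows. C1qa and C1qb, which have C1qc between them on chromosome 5, shared no motif of this search. A match describes letters only and shows no binding.

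Macrophage markers moved with C1q. Of the 15 listed, 14 were tested, and their mean level ran from 8.46 to 10.24 in basal and from 8.97 to 9.64 in final samples. In 11D2 13 of 14 and in 43D1 14 of 14 were higher in the final sample (median changes 0.70 and 0.85), while in 12I1 0 of 14 and in 29I1 1 of 14 were (medians -0.57 and -1.36), and in 09I1 6 of 14 (median -0.059). Over the 10 arrays the mean of the macrophage list correlated with C1qa at r = 0.946, C1qb at 0.885 and C1qc at 0.953. The values were 0.807 for C3, 0.699 for C1r, 0.648 for C1s and 0.562 for Serping1. The mean of the T and NK cell list, described below, correlated at 0.753 with C1qa, 0.673 with C1qb and 0.806 with C1qc. It correlated at 0.718 with C3, 0.733 with C1r, 0.618 with C1s and 0.507 with Serping1. In 09I1 the macrophage list was almost level (mean change -0.14), while the change of C1qb was -1.46. The part of macrophage content in the C1q values was not tested.

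**Figure D3:**
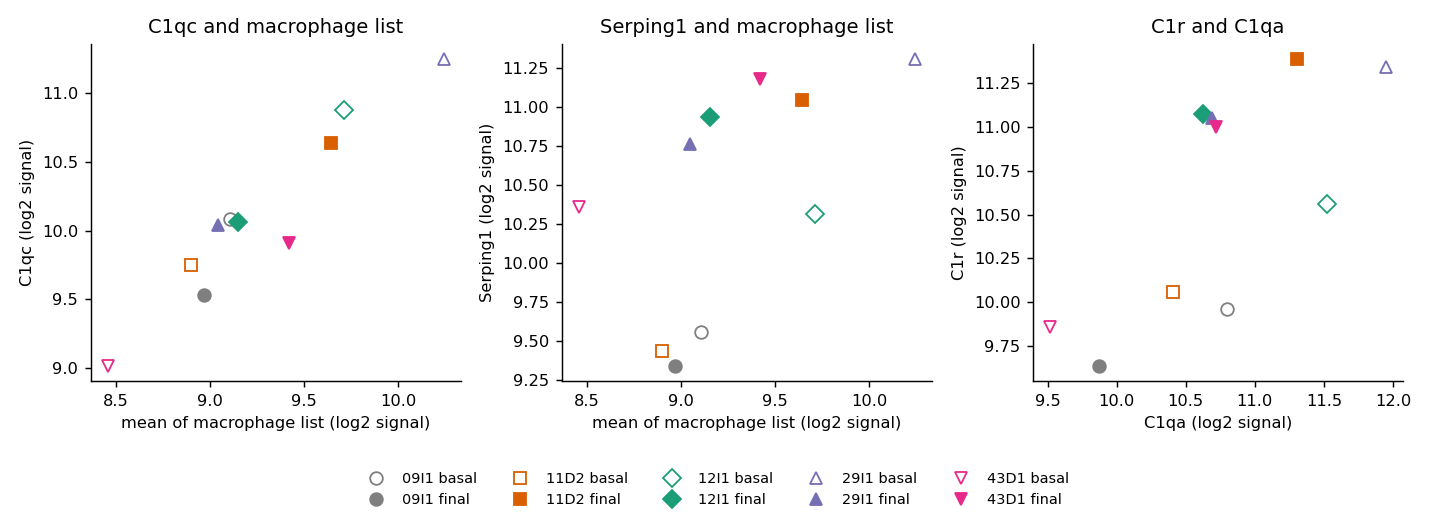
Levels (log2 signal) on 10 arrays, open symbols basal and filled symbols final, 1 colour per tumor. C1qc lies close to a line with the mean of the macrophage list (r = 0.953), whereas Serping1 (r = 0.562) scatters around it. In the right panel C1r is plotted against C1qa, and 12I1 moves up and to the left from basal to final.

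Fibroblast markers (11 of 11 tested, list mean 9.63 to 10.72 in basal and 9.41 to 10.77 in final samples) were higher in 12I1 and 11D2, with 11 of 11 in each and median changes of 0.72 and 0.99. In 29I1 0 of 11 (median -1.02) and in 09I1 2 of 11 (median -0.33) were higher, the same direction as C1r, C1s and Serping1 in those 4 tumors. In 43D1 3 of 11 were higher (median -0.19), while C1r, C1s and Serping1 were 0.82 to 1.14 higher there. The fibroblast list mean correlated over the 10 arrays at 0.561 with C1r, 0.653 with C1s and 0.572 with Serping1. Over the 5 within-tumor changes these values were 0.738, 0.859 and 0.889, and those with the macrophage list were 0.817, 0.814 and 0.780. T and NK cell markers (10 of 10 tested, list mean 5.28 to 7.93 and 6.53 to 7.34) had median changes of 1.11 in 09I1 and in 11D2 (9 of 10 higher in each), 1.21 in 43D1 (10 of 10), -0.016 in 12I1 (5 of 10) and -0.73 in 29I1 (2 of 10). In 11D2 the final sample also differed in adipocyte markers (7 of 8 tested, 7 higher, median 2.26) and in skeletal muscle markers (7 of 8 tested, 7 higher, median 4.81). Adipocyte markers were also higher in 09I1 (6 of 7, median 1.17) and in 43D1 (6 of 7, median 0.83), while 3 of 7 were higher in 12I1 (median -0.087) and 0 of 7 in 29I1 (median -1.84). Of all 12255 genes tested, 7185 were higher in 09I1 (median 0.15), 5768 in 11D2 and 5995 in 43D1. Hepatocytes make most plasma complement. Of their 9 listed markers 5 passed the filter on low values, with a list mean of 4.26 to 5.43 in basal and 4.64 to 5.44 in final samples. Albumin (Alb) stood at 4.17 ± 0.17 and 4.47 ± 0.39 (SD, n = 5 each), where the lower quartile of all probe sets was at most 4.29 on any array. Fgg, a fibrinogen chain, was brighter in several samples, with basal values of 5.99, 5.12, 8.53, 5.03 and 3.56 in 09I1, 11D2, 12I1, 29I1 and 43D1 and final values of 7.08, 7.87, 7.68, 5.11 and 4.94. It was 2.75 higher in the final sample of 11D2. The part of fibroblast, lymphocyte, fat, muscle or liver-type content was not tested.

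Genes whose level was most like that of each complement gene over the 10 arrays were sought among 12248 others. C1qa was closest to Marchf1 (r = 0.960), Hpse (0.955) and Pltp (0.954). C1qb was closest to Clec10a (0.973), Cd74 (0.972) and Plxnc1 (0.967). C1qc was closest to Ms4a7 (0.976), Vav1 (0.959) and RT1-DMa (0.954). C1r was closest to Fgl2 (0.987), Il7r (0.981) and P2ry10 (0.977), and C1s to Prkcq (0.969), Il1r1 (0.960) and Fgl2 (0.958). Serping1 was closest to Dcn (0.975), then Ccl7 (0.911) and Afmid (0.903). C3 was closest to St3gal6 (0.986), Gpr176 (0.968) and Samsn1 (0.953). These are the 3 highest of a search over 12248 genes and 10 arrays, and none carries a test.

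The rest of the pathway showed no gene past the threshold either. Of 47 further complement genes listed, 35 had a probe set of their own and 31 passed the filter on low values. None of these 31 was called by limma (smallest adjusted p = 0.977) or by the methods' paired t-test. At an unadjusted p under 0.05 there were 2 higher and 1 lower of 31, against 2.88% of all genes tested. The median change was 0.10, and the SD of changes had a median of 0.56 over the 31 and of 0.98 over the 7 described above.

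The 3 at an unadjusted p under 0.05 were Masp1, Masp2 and Cd59b. Masp1, a protease of the lectin pathway (1390585_at), was at 6.46 ± 0.38 in basal and 7.11 ± 0.33 in final samples (SD, n = 5 each), a difference of 0.65 ± 0.22 (SE), positive in 4 of 5 tumors (limma adjusted p = 0.977). The other 2 probe sets of Masp1 differed by 0.068 and 0.20. Masp2, which cleaves C4 and C2 (1393156_at), went from 7.61 ± 0.40 to 6.89 ± 0.48, a difference of -0.72 ± 0.29 (SE), negative in 4 of 5 tumors (limma adjusted p = 0.977). Its other 2 probe sets did not pass the filter on low values. The lectin pathway proteases thus had opposite signs, without passing. Cd59b, a membrane inhibitor of the lytic complex, went from 10.53 ± 0.35 to 10.95 ± 0.28, a difference of 0.43 ± 0.17 (SE), positive in 4 of 5 tumors (limma adjusted p = 0.977).

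Over all 12255 genes tested, 6462 had positive mean changes, and among lectin pathway genes 3 of 8 did. Colec12, a scavenger receptor collectin, had one of 0.68, with 2.18 in 11D2 and -0.87 in 09I1, and of 1.07 without 09I1. Colec11 was positive in 5 of 5 tumors, by 0.13 on average, at a level of 4.06 to 4.19 that lies near the lower quartile of the arrays. Among 8 alternative pathway genes and fluid regulators all 8 were positive. The smallest of these changes was 0.023, for Cfp, whose second probe set had one of -0.13 (-0.31 without 09I1). Vtn, vitronectin, which binds the terminal complex, was positive in 5 of 5 tumors with 0.30 ± 0.15 (SE). Cfi, the protease that degrades C3b and C4b, had a change of 0.32, Cpn1, which inactivates anaphylatoxins, one of 0.10 (0.16 without 09I1), and Susd4 one of 0.45 that was 0.028 without 09I1. Group means of Cpn1 (4.66 and 4.76) and Susd4 (4.76 and 5.20) were low, where array medians were 5.93 or more. All 4 tested terminal pathway genes had mean changes between 0.043 and 0.28 (C8g 0.28, C6 0.18, C9 0.13, C8b 0.043). Without 09I1 they were 0.11 for C8g and 0.036 for C9. C8g was near the median of the arrays (means of 6.06 and 6.35), while group means of the other 3 were 4.20 to 4.95. All 4 membrane regulators had positive mean changes, with Cd55, decay-accelerating factor, at 0.48 (0.96 without 09I1), Cd46 at 0.081 and Cr1l at 0.072 (0.30 without 09I1). The second probe set of Cd55 had a change of 0.083 (0.72 without 09I1) and that of Cr1l one of -0.27.

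Of the 7 tested complement receptor genes, 0 were higher in the final sample of 29I1 (median -0.81), 2 in that of 12I1 (median -0.26) and 5 in that of 43D1 (median 0.60). The count was 4 of 7 both in 11D2 (median 0.53), where all 7 of the C1, C3 and Serping1 transcripts were higher, and in 09I1 (median 0.21), where all were lower. Their mean changes were 0.25 for Itgam and 0.10 for Itgb2, which together form complement receptor 3, -0.21 for Itgax and -0.71 for Cd93. Without 09I1 they were 0.10 for Itgam, 0.20 for Itgb2, 0.028 for Itgax and -0.27 for Cd93, which was -2.47 in 09I1. Its second probe set had a change of 0.25. Cfd, the adipocyte-rich factor D of the alternative pathway, and C5ar1, the anaphylatoxin receptor, were chosen after their values were seen. Cfd had changes of 3.27 in 11D2, 2.12 in 43D1, 0.83 in 09I1, -0.48 in 12I1 and -3.01 in 29I1. C5ar1 had changes of 0.96, 0.86, 0.21, -0.87 and -1.66 in these tumors, the same order as Cfd.

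**Figure D4:**
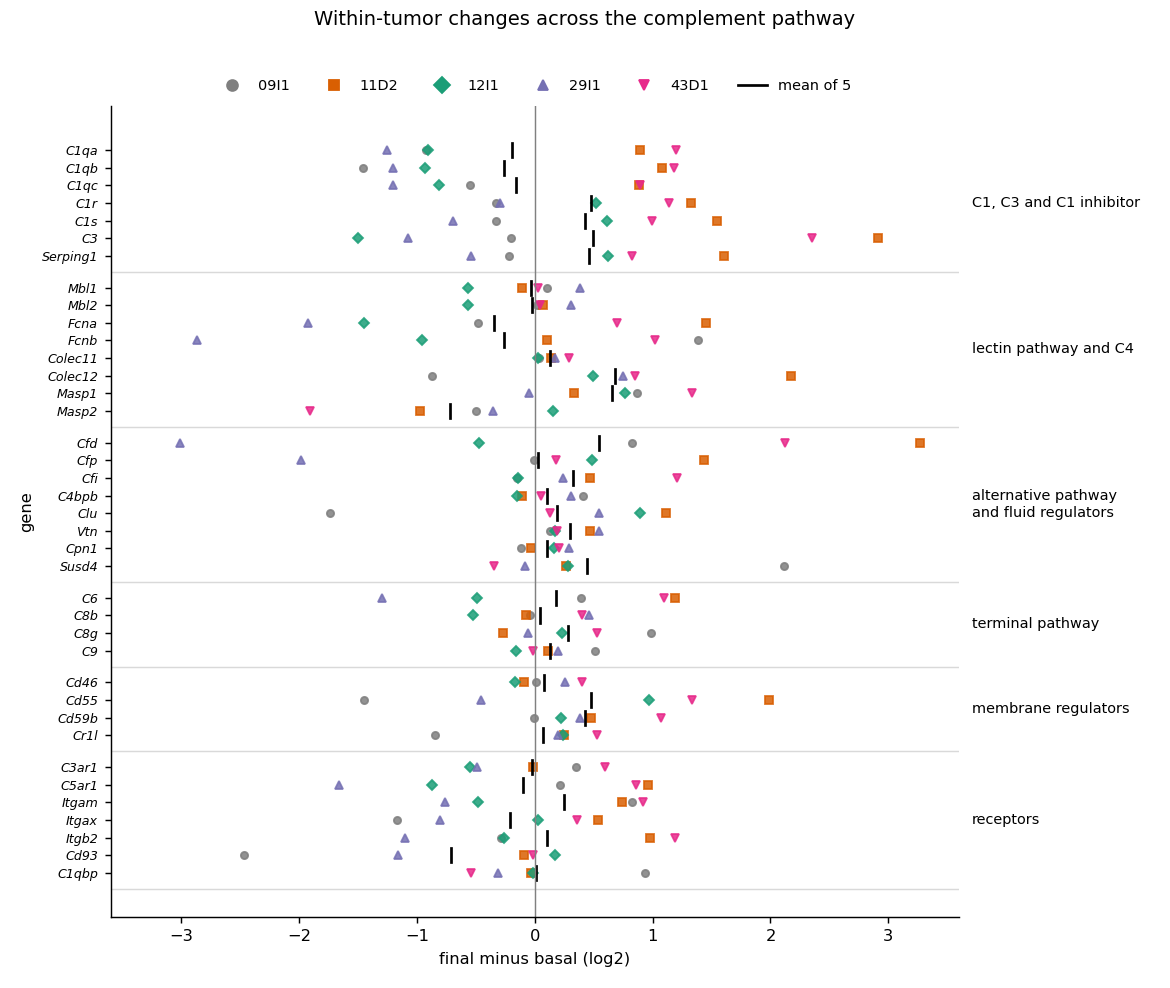
Final minus basal (log2, horizontal axis) for each tested complement gene, 1 symbol per tumor and a black bar for the mean of 5, grouped by pathway arm. Symbols lie on both sides of 0 for all but 2 genes, Colec11 and Vtn.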

How the data were processed

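The authors deposited log2 signals of 10 arrays, 1 per sample, made with robust multichip averaging (RMA) per the series' design text and the submitters' processing notes. The filter on dim signals that text names is not visible in the table, which held 57 control probe sets and low values. Software version and build are not given in the sources used here. Of 31099 probe sets 20826 carried 1 symbol, 436 several and 9780 none, and 20758 matched RefSeq (GRCr8) by Entrez identifier. That table served for names and neighbours.

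After removal of controls and of the dimmest 25% by mean level, 23281 probe sets were tested. The model (limma 3.58.1, R 4.3.3) compared final with basal samples, blocked on tumor, with a variance trend over intensity. P-values were adjusted by Benjamini-Hochberg over all tested probe sets (threshold 0.05). Where a gene had several tested probe sets, the brightest stood for it. The fit was tested on simulated data. Figures used matplotlib 3.10.9.

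The pairing comes from the tumor codes in the labels. Deviations from the group means correlated at -0.13 to 0.21 within pairs, and in 2 of 5 tumors the basal sample was closest to its own final sample.

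Members and gene lists (other complement genes, cell type markers, interferon gamma response, acute phase and NF-kB response) were chosen with earlier results of these data known. Named were all 9 members, complement genes with 1 sign in all 5 tumors, up to 4 per list with the smallest p, and the 3 genes most correlated with each member. Alternatives covered the block (none or random), the filter (none or 50%), scaling (cyclic loess or median centring), array weights, a fit without the trend, the methods' paired t-test, and omission of each tumor. The number of arrays limits the precision.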

Additional observations from a re-analysis of the deposited data

Results flagged for a closer look

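In 11 of 117 groups of 5 values, 1 value lay far from its nearest neighbour. About 5.85 would arise by chance if the groups were independent. They share the same 10 arrays, and changes are made from the levels, so no conclusion is drawn from the 2 numbers. Tumor 09I1 gave 8 of the 11. Its final sample was low for C1r, at 9.64 against 11.00 to 11.39 in the other final samples, for Serping1, at 9.34 against 10.76 to 11.18, and for Cr1l, at 9.81 against 10.72 to 10.76. It was high for Susd4 (6.53 against 4.79 to 4.96), C8g (7.02 against 6.09 to 6.27) and C9 (5.12 against 4.15 to 4.37). The change in 09I1 stood apart for Susd4 (2.11) and for Cr1l (-0.84). The final array of this tumor also had the high 3' to 5' difference of beta-actin given above, whose part in these values was not tested.

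In the other tumors, the final level of Masp1 in 43D1 was 7.69, against 6.90 to 7.00. The basal level of Colec12 in 11D2 was 7.13, against 9.16 to 9.74, so the change of 2.18 in that tumor rests on a low basal value. The final level of C8b in 12I1 was 3.88, against 4.27 to 4.42.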

How the results depend on the processing

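The 7 genes were refitted under 14 alternatives, which gave 98 values, and none passed the threshold. The smallest adjusted p, 0.313, was that of C1r with array weights. There 3 of the 7 had an unadjusted p under 0.05, as did 2440 of all 23281 probe sets. Without 09I1 it was 1 of the 7 (C1r), against 1869 of 23281 probe sets. Without 29I1 it was also 1 of the 7 (Serping1), against 958 of 23281. The direction was kept in 90 values. With array weights the change was 0.26 for C1qa, 0.33 for C1qb and 0.23 for C1qc, and it was 1.36 for C3, 0.85 for C1r, 0.87 for C1s and 0.90 for Serping1. Leaving out each tumor gave -0.55 to 0.068 for C1qa, -0.63 to 0.032 for C1qb, -0.42 to 0.10 for C1qc and -0.11 to 1.00 for C3. It gave 0.26 to 0.67 for C1r, 0.14 to 0.70 for C1s and 0.17 to 0.71 for Serping1, positive throughout. Without the replicate block, and with it as a random block, 0 probe sets, 0 of the 7 genes and 0 of the 31 other complement genes passed, as in the paired fit. At an unadjusted p under 0.05 there were 935 probe sets, 1869 without 09I1, 606 without 11D2 and 2440 with array weights. Each measured gene had 1 probe set, so a mean over probe sets could not be formed. Causes were not tested. The 5 pairs limit what can be detected, and every 95% interval given holds changes in either direction.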

Other observations

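C3 and factor B genes are known targets of interferon gamma and of acute phase cytokines. Of the 10 tested genes of the interferon gamma list none passed, with a median change of -0.10, and 10 of 10 were higher in the final sample of 43D1 and 0 of 10 in 29I1. Tap1, the peptide transporter subunit, had a change of -0.25 (-0.12 without 09I1), Psmb8, an immunoproteasome subunit, one of 0.15 (0.075 without 09I1), the chemokine gene Cxcl10 one of -0.53 and Ciita, the MHC class II transactivator, one of -0.30. The list mean correlated at 0.771 to 0.862 with the C1q chains and at 0.636 with C3 over the 10 arrays, as a description. The values were 0.668 for C1r, 0.612 for C1s and 0.468 for Serping1.

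Of the 12 tested genes of the acute phase and NF-kB list none passed, with a median change of -0.047. C3 was lower in the final samples of 12I1, 29I1 and 09I1, where 0, 5 and 7 of the 12 were higher, and it was higher in 11D2 and 43D1, where 8 of 12 were higher in each. Cebpd, a transcription factor of the acute phase, went from 8.71 ± 0.55 to 9.45 ± 0.27 (SD, n = 5 each), a difference of 0.74 ± 0.25 (SE), positive in 4 of 5 tumors (limma adjusted p = 0.977). The inflammatory cytokine gene Il1b had a change of -0.73, negative in 4 of 5 tumors and positive in 09I1. Nfkb2 had a change of 0.21 (0.11 without 09I1), and Hp, haptoglobin, one of -0.33. The mean of this list correlated with C3 at r = 0.835 over the 10 arrays. It correlated at 0.758 with C1qa, 0.719 with C1qb and 0.775 with C1qc, and at 0.557 with C1r, 0.533 with C1s and 0.525 with Serping1.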
